A study of Callithrix jacchus with 39 samples.

Results

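Heart and skeletal muscle of the marmoset Callithrix jacchus, a New World primate, were compared through their maps of H3K27ac and H3K4me3, using 7 of the 31 ChIP-seq libraries of a series on 8 tissues. Libraries were taken by the tissue and mark in their titles. For H3K27ac, an acetylation of histone H3 pulled down with antibody ab4729, heart had replicates 1 and 2 and skeletal muscle had replicates 1 and 2. For H3K4me3, a trimethylation of histone H3 pulled down with antibody ab8580, heart had replicate 2 alone and skeletal muscle had replicates 1 and 2. The labels give tissue and antibody and no treatment, genotype or age, and whether the numbered replicates come from separate animals is not stated there. The spread behind every p-value below is that between libraries. Between replicates of a tissue it may be technical. Where a test pools libraries of both tissues, the spread also includes the difference between the tissues.

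Both tissues are striated muscle built from sarcomeres. Heart works as a continuously beating pump of coupled cardiomyocytes, and skeletal muscle consists of long multinucleate fibres under nerve control. H3K27ac is found at active promoters and active enhancers, and enhancers are the elements that differ most between cell types. H3K4me3 is found mainly at promoters, so its presence or absence at an acetylated region is commonly used to separate promoter-like from distal elements. Heart and skeletal muscle samples are mixtures of muscle cells with vessels, connective tissue and blood, and in such bulk samples fewer cells of a type and less of a mark per cell cannot be told apart. The peaks lie on the calJac3 build. No gene annotation or sequence of that build was used here, so the tissue labels were not checked against marker genes and no region was assigned to a gene.

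The 4 H3K27ac lists were merged, wherever peaks overlapped by at least 1 bp, into 55501 union regions. A union region was called heart-only when both heart libraries and neither skeletal muscle library had a peak in it, skeletal-muscle-only in the mirrored case, and all-4 when every library had a peak. These rules gave 2867 heart-only regions (5.17% of the union), 9352 skeletal-muscle-only regions (16.9%) and 11115 all-4 regions (20.0%). The other 32167 regions (58.0%) belonged to none of the 3 classes, and 26323 of them had a peak in 1 library alone. A peak in just 1 heart and just 1 skeletal muscle library was rare, with 342 to 519 regions in each of the 4 such patterns, against the 2867 and 9352 regions of the patterns joining both libraries of heart and both of skeletal muscle. Regions in 3 of the 4 libraries numbered 4097. Absence from a class means that no peak was called, since the read depth behind the lists is unknown. These counts are the rule itself and carry no test.

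**Figure D1:**
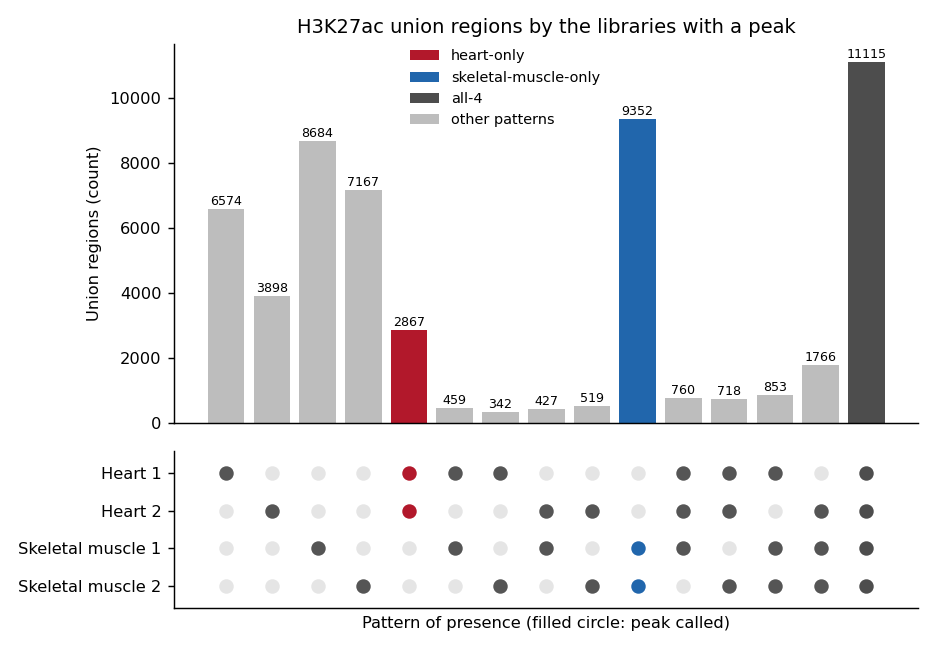
Number of H3K27ac union regions (y axis) for each of the 15 patterns of presence over the 4 libraries (x axis, with filled circles for libraries with a peak). Bars of the heart-only (2867), skeletal-muscle-only (9352) and all-4 (11115) classes are coloured, and patterns that mix 1 library of each tissue stay at or below 519 regions.

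Heart had the smaller acetylation map. The heart libraries held 26689 and 24590 H3K27ac peaks, and the skeletal muscle libraries 37118 and 34890. They covered 17.1 and 17.8 Mb in heart and 27 and 25.9 Mb in skeletal muscle, so both skeletal muscle libraries lay above both heart libraries on each measure. Peak number differed by -0.49 (log2), with means of 25640 ± 1484 peaks in heart and 36004 ± 1575 in skeletal muscle (SD, n = 2 each), and 2 against 2 libraries cannot give a two-sided exact permutation p below the 0.333 obtained. Covered length differed by -0.60 (log2; 17.4 ± 0.466 Mb in heart and 26.5 ± 0.759 Mb in skeletal muscle, SD, n = 2 each; exact permutation p = 0.333). The H3K4me3 lists had another order, with 18231 peaks in heart replicate 2 and 16850 and 24424 peaks in skeletal muscle replicates 1 and 2. The heart H3K4me3 list thus lay between the skeletal muscle replicates, and covered length was 15.4 Mb in heart and 12.8 and 25.1 Mb in skeletal muscle replicates 1 and 2, with replicate 2 standing apart.

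Replicates of a tissue shared more acetylated peaks than libraries of different tissues did. Of the peaks of heart replicate 1, 67.0% were met by heart replicate 2, and 57.5% and 57.0% by skeletal muscle replicates 1 and 2. Of the peaks of heart replicate 2, 69.6% were met by heart replicate 1, and 64.4% and 64.9% by the skeletal muscle libraries. The gap between the tissues was wider from the skeletal muscle side, where 70.9% and 73.8% of the peaks of replicates 1 and 2 were met by the other skeletal muscle library, but 40.2% to 44.5% by a heart library. Such shares depend on list length, as a longer list meets more of any other list. For H3K4me3, 79.8% and 95.1% of the heart peaks were met by skeletal muscle replicates 1 and 2. From the other side, the heart list met 91.0% of the peaks of skeletal muscle replicate 1 and 65.6% of those of replicate 2, while the skeletal muscle lists met 96.1% of replicate 1 and 59.1% of replicate 2. The shares between heart and skeletal muscle thus fell inside the range between the skeletal muscle replicates.

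The ratio of the single-tissue classes depended on list length and on single libraries. Skeletal-muscle-only regions outnumbered heart-only regions 3.26-fold with the lists as deposited. With each list reduced to its 24590 peaks of highest −log10 p, the length of the shortest list, there were 3581 heart-only, 5029 skeletal-muscle-only and 9696 all-4 regions, and the ratio was 1.40. Leaving out 1 library, whose tissue's class then rests on 1 library, gave ratios of 1.43 without heart replicate 1, 1.13 without heart replicate 2, 4.87 without skeletal muscle replicate 1 and 5.35 without skeletal muscle replicate 2. The skeletal-muscle-only class was the larger in each of these versions, by margins from 1.13-fold to 5.35-fold.

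H3K4me3, which played no part in choosing the regions, separated the classes. A peak of at least 1 of the 3 H3K4me3 libraries overlapped 1190 heart-only regions (41.5%), 1410 skeletal-muscle-only regions (15.1%) and 10088 all-4 regions (90.8%), against 35.0% of all union regions. Heart-only regions were thus a mixture of marked and unmarked regions close to the union as a whole, while skeletal-muscle-only regions mostly lacked the promoter mark and all-4 regions mostly carried it. With lists of equal length the shares were 48.9%, 18.5% and 93.1%, in the same order.

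At the heart-only regions, H3K4me3 of both tissues was found at shares close to those over the whole union. Heart replicate 2 marked 33.1% of them, and skeletal muscle replicates 1 and 2 marked 29.2% and 34.5%, and over all union regions these shares were 27.4%, 25% and 33.7%. By rule, neither skeletal muscle H3K27ac library had a peak at a heart-only region. H3K4me3 was found in all 3 libraries at 649 heart-only regions (22.6%, against 23.2% of all union regions). It was found in heart and at least 1 skeletal muscle library at 876 (30.6%, against 26.8% of the union). Marking in heart alone was found at 73 (2.55%), above the 0.616% of all union regions. A further 241 (8.41%, against 7.61% of the union) had H3K4me3 in skeletal muscle without heart. Of the heart-only regions with H3K4me3, 93.9% were thus marked in skeletal muscle, against 98.2% of all marked union regions, so marking in skeletal muscle was general. The heart is represented by 1 H3K4me3 library, so these shares are a description with no test.

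At the skeletal-muscle-only regions the result rested on which skeletal muscle library was read. Heart replicate 2 marked 4.48% of them, skeletal muscle replicate 1 marked 3.0% and skeletal muscle replicate 2 marked 14.9%. All 3 shares lay below those over the whole union, where the libraries had the same order. Of the 9352 regions, 937 were marked by skeletal muscle replicate 2 alone (6.18% over all union regions), 52 (0.556%) by both skeletal muscle libraries without heart, and 226 (2.42%) by all 3 libraries. Skeletal muscle replicate 1 thus marked a smaller share than heart did, and replicate 2 a larger one, so no tissue difference in H3K4me3 can be read from these regions. In the all-4 class the shares were 85.6% in heart and 82.8% in skeletal muscle replicate 1, while skeletal muscle replicate 2 marked 10001 of the 11115 regions, with 9005 regions (81.0%) marked in all 3 libraries.

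**Figure D2:**
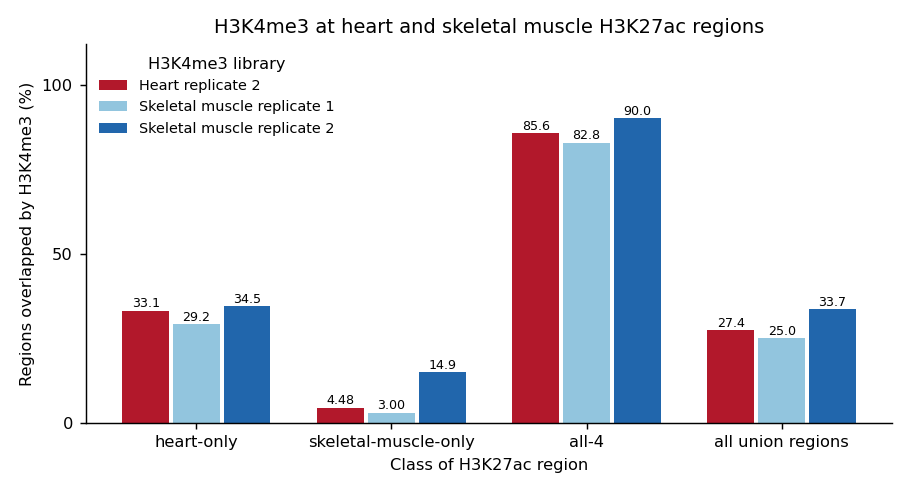
Share of H3K27ac union regions overlapped by H3K4me3 (y axis, percent) in each class and in all union regions (x axis), for the heart library and the 2 skeletal muscle libraries (bars, 1 library each, no error). Heart-only regions are marked at 29.2% to 34.5% by all 3 libraries, and at skeletal-muscle-only regions skeletal muscle replicate 2 (14.9%) stands above the other libraries.

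Seen from the H3K4me3 lists, the all-4 class held most peaks of heart replicate 2 and of skeletal muscle replicate 1, and 42.8% of those of skeletal muscle replicate 2. Of the H3K4me3 peaks of heart replicate 2, 5.10% met heart-only regions and no other class, 2.25% met skeletal-muscle-only regions and 57.5% met all-4 regions. For skeletal muscle replicate 1 these shares were 5.19%, 1.67% and 62.7%, and for replicate 2 the share at heart-only regions was 3.72% and that at skeletal-muscle-only regions 5.44%. In each of the 3 libraries, the H3K4me3 peaks at single-tissue regions were shorter than those at all-4 regions. In heart their median length was 634 bp at heart-only and 492.5 bp at skeletal-muscle-only regions, against 937 bp at all-4 regions. In skeletal muscle replicate 1 the medians were 550, 447 and 803 bp in that order of classes, and in replicate 2 they were 801, 726 and 1235 bp. H3K4me3 peaks that met no H3K27ac region of either tissue were the shortest group in heart (419 bp, 14.1% of its peaks), in skeletal muscle replicate 1 (387 bp, 10.7%) and in replicate 2 (544 bp, 26.9%).

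The comparison was then made inside each H3K27ac library, between the library's own peaks in the single-tissue class of its tissue and its own peaks in the all-4 class. The share of peaks with H3K4me3 was 40.4% and 40.0% for single-tissue peaks in heart replicates 1 and 2 and 14.4% and 14.5% in skeletal muscle replicates 1 and 2, against 88.2%, 87.7%, 87.5% and 87.3% for all-4 peaks of the same libraries. Single-tissue peaks were marked less in every library, with the smaller gaps in heart. The mean difference was -60.3 ± 14.6 percentage points (SD, n = 4 libraries), lower in 4 of 4, with a two-sided exact sign-flip permutation p of 0.13, the smallest that 4 libraries can give. The differences were -47.8 and -47.7 points in heart replicates 1 and 2, and -73.1 and -72.8 points in skeletal muscle replicates 1 and 2. The SD thus came mostly from the gap between the tissues. Replicates of a tissue agree closely here partly by construction, because both contribute peaks to the same regions. The 4 libraries are therefore not independent units. Where each class was instead built on 1 library of a tissue, the single-tissue shares were 22.1% with heart replicate 1 alone and 34.8% with heart replicate 2 alone, and 12.2% and 13.8% with skeletal muscle replicates 1 and 2 alone.

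Single-tissue peaks were also shorter. Their median length was 481.5 and 466 bp in heart replicates 1 and 2 and 553 and 532 bp in skeletal muscle replicates 1 and 2, against 662, 800, 825 and 867 bp for all-4 peaks. The mean difference was -280 ± 72.8 bp (SD, n = 4 libraries; exact sign-flip permutation p = 0.13), with the single-tissue median lower in 4 of 4. Length is not wholly separate from the rule, since a long peak meets other peaks more easily. Among peaks with H3K4me3 the differences were -197, -309, -238 and -255 bp in heart 1, heart 2, skeletal muscle 1 and skeletal muscle 2. Among peaks without H3K4me3 they were -16.5, -57, -96 and -70 bp. Merged union regions, which grow with the number of libraries they join, did not show a smaller gap without H3K4me3. Their medians were 660 bp (heart-only), 740 bp (skeletal-muscle-only) and 1337 bp (all-4) without the mark, and 724, 861.5 and 1352 bp with it.

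**Figure D3:**
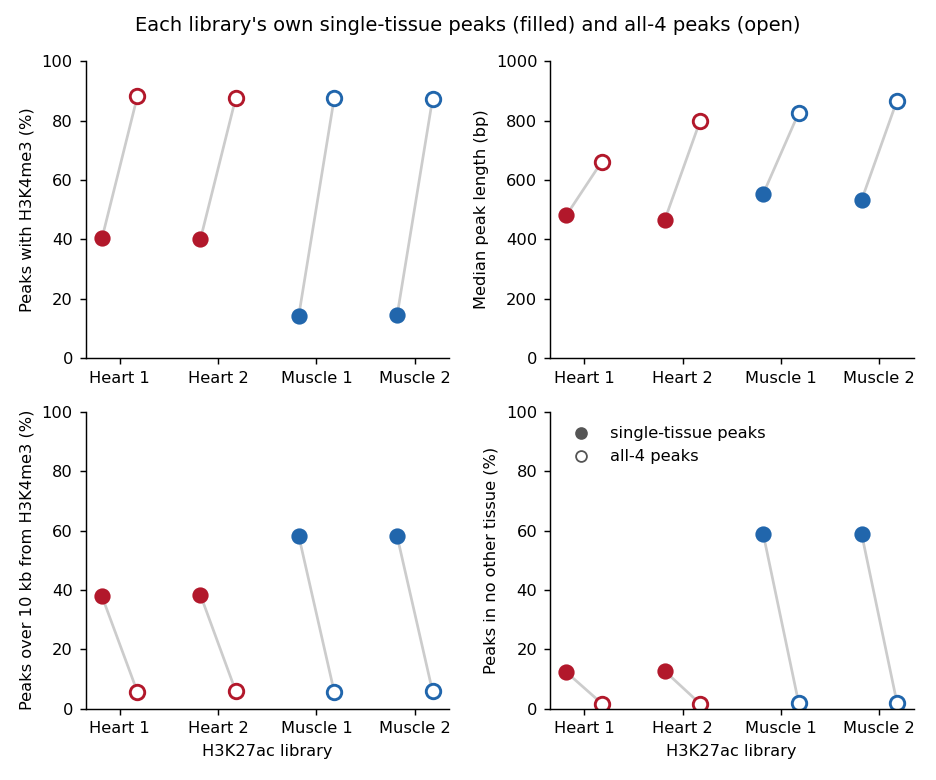
Own peaks of each of the 4 H3K27ac libraries (x axis), single-tissue peaks as filled points and all-4 peaks as open points, 1 value per library, joined by lines. In the 4 panels, single-tissue peaks have less H3K4me3, a shorter median length in bp, a larger share over 10 kb from H3K4me3 and a larger share in no other tissue in every library.

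Position followed the H3K4me3 overlap. Of single-tissue peaks, 37.8% and 38.4% in heart replicates 1 and 2 and 58.1% in both skeletal muscle replicates lay over 10 kb from the nearest H3K4me3 region of the 3 libraries, against 5.64%, 5.88%, 5.77% and 5.86% of all-4 peaks. The mean difference was 42.3 ± 11.5 percentage points (SD, n = 4 libraries; exact sign-flip permutation p = 0.13, higher in 4 of 4). A peak overlapping H3K4me3 cannot lie over 10 kb from it, so this test is not separate from that of the H3K4me3 share. The differences were 32.2 and 32.5 points in heart replicates 1 and 2, and 52.4 and 52.2 points in skeletal muscle replicates 1 and 2. This SD too came mostly from the gap between the tissues. With classes built on 1 library of a tissue, the distal shares of single-tissue peaks were closer, at 54.4% and 44.0% with heart replicates 1 and 2 alone and 59.9% and 60.0% with skeletal muscle replicates 1 and 2 alone. Once regions overlapping H3K4me3 were set aside, the classes differed less, and the median gap to H3K4me3 was 20.9 kb for 1677 heart-only regions, 23.2 kb for skeletal-muscle-only regions and 14.4 kb for 1027 all-4 regions. The larger distal share of skeletal-muscle-only regions thus came with their smaller share at H3K4me3, and not with a much longer gap beyond it. Among these regions without H3K4me3, 32.6% of heart-only, 31.7% of skeletal-muscle-only and 26.3% of all-4 regions lay over 50 kb away.

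**Figure D4:**
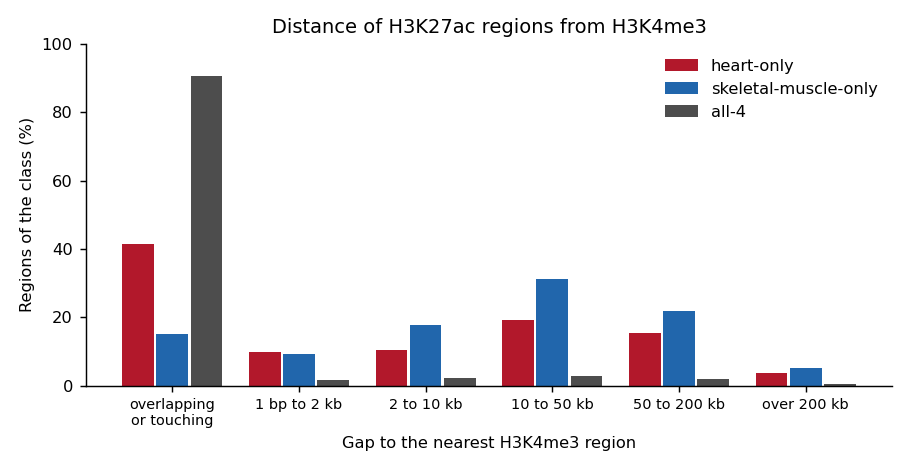
Share of regions of each class (y axis, percent) by the gap to the nearest H3K4me3 region of the 3 libraries (x axis, unequal distance bins). All-4 regions fall mostly in the first bin, 41.5% of heart-only regions do so, and skeletal-muscle-only regions exceed the other classes in the bins from 2 kb outwards.

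Skeletal-muscle-only regions came in groups. Another region of the same class lay within 12 kb of 32.4% of heart-only, 58.3% of skeletal-muscle-only and 37.6% of all-4 regions. Clusters of at least 5 regions joined at that distance numbered 7 in the heart-only class, 166 in the skeletal-muscle-only class and 27 in the all-4 class, and the largest held 9, 13 and 7 regions. A class with more regions has closer neighbours at the same spread, so the heart-only and skeletal-muscle-only values are not on one footing, but the all-4 class was the largest of the 3 and still had fewer clusters than the skeletal-muscle-only class. After regions of the same class within 2 kb had been joined, so that split regions counted once, 27.8% of heart-only, 56.1% of skeletal-muscle-only and 49.0% of all-4 regions had a neighbour of their own class within 50 kb.

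Spacing between heart-only and skeletal-muscle-only regions was set beside that of all-4 regions. All-4 regions mostly met H3K4me3, so they are not a matched baseline, and closeness as such was not tested. A heart-only region lay within 50 kb of 14.1% of the joined skeletal-muscle-only regions and of 17.2% of the joined all-4 regions. A skeletal-muscle-only region lay within 50 kb of 31.0% of the joined heart-only regions and of 37.9% of the joined all-4 regions. All-4 regions lay within 50 kb of 49.2% of heart-only and 51.6% of skeletal-muscle-only regions. The shares of single-tissue regions with a region of the other tissue nearby were thus below the matching shares of all-4 regions, and the shares with an all-4 neighbour were close in both tissues. These spacings are descriptions over regions of 1 genome map and carry no test.

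By chromosome, the classes were spread much like the union as a whole, with a few departures. Chromosome 22 had the largest all-4 share, 32.0% of its 2272 union regions, beside a heart-only share of 7.26% and a skeletal-muscle-only share of 15.1%, and 51.5% of its regions met H3K4me3. Chromosome 19 had the lowest heart-only share, 4.02%, with a skeletal-muscle-only share of 19.0%. On chromosome X the skeletal-muscle-only share was 13.7%, the lowest of any chromosome, while 50.7% of its regions met H3K4me3. The chromosomes 22 and X, with the largest H3K4me3 shares among assembled chromosomes, thus had the lowest skeletal-muscle-only shares.

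The 12 H3K27ac libraries of colon, kidney, liver, pancreas, spleen and stomach served as a background on how far the regions were limited to muscle. No library of these 6 tissues had a peak in 343 heart-only regions (12%), 5347 skeletal-muscle-only regions (57.2%) and 120 all-4 regions (1.08%), against 37.8% of all union regions. Being acetylated in heart and not in skeletal muscle thus seldom meant being absent elsewhere, whereas most skeletal-muscle-only regions were absent from every other tissue. With lists of equal length the shares were 9.44%, 54.2% and 0.794%. Measured on each library's own peaks, 12.3% and 12.7% of single-tissue peaks in heart replicates 1 and 2 and 58.9% and 59.0% in skeletal muscle replicates 1 and 2 were found in no other tissue, against 1.76%, 1.66%, 2.07% and 2.07% of all-4 peaks (mean difference 33.8 ± 26.6 percentage points, SD, n = 4 libraries; exact sign-flip permutation p = 0.13, higher in 4 of 4). This share is not separate from the rule, since both count libraries with an H3K27ac peak. The test of it thus gives no independent support. The differences were 10.5 and 11.0 points in heart replicates 1 and 2, and 56.8 and 56.9 points in skeletal muscle replicates 1 and 2. The SD of this share thus came mostly from the gap between the tissues. With classes built on 1 library of a tissue, the single-tissue shares were 33.0% with heart replicate 1 alone and 21.4% with heart replicate 2 alone, and 61.6% and 60.5% with skeletal muscle replicates 1 and 2 alone.

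The number of other tissues with acetylation in both of their libraries showed the same order. Both libraries of all 6 other tissues had a peak at 278 heart-only regions (9.70%), 52 skeletal-muscle-only regions (0.556%) and 7820 all-4 regions (70.4%). Over all union regions this share was 16.4%, so both single-tissue classes lay below it. Heart-only regions were spread over every number of tissues from 0 to 6, with shares between 9.0% and 28.8%. They were found in both libraries of liver at 43.8%, pancreas at 42.4%, spleen at 37.5%, stomach at 34.2%, kidney at 31.7% and colon at 30.2%, each above the share of all union regions in that tissue (35.3%, 32.0%, 27.5%, 28.6%, 26.9% and 28.5% in the same order). Skeletal-muscle-only regions were found in both libraries of liver at 15.3% and of the other tissues at 5.65% to 9.06%, each below the union's share. As over the union as a whole, where 7.13% of regions with H3K4me3 and 54.3% of those without it were in no other tissue, marked regions were the broader ones in both single-tissue classes. Of the heart-only class, 4.20% of regions with H3K4me3 and 17.5% of those without it were in no other tissue, and for skeletal-muscle-only regions these shares were 37.4% and 60.7%.

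**Figure D5:**
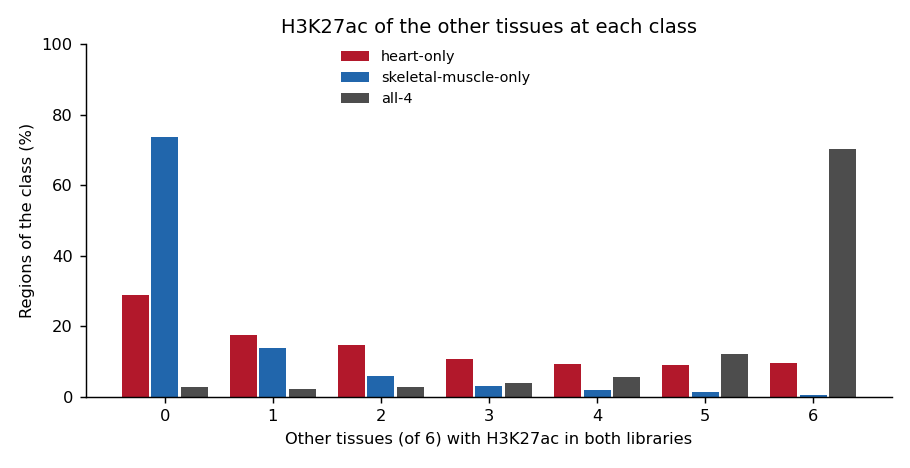
Share of regions of each class (y axis, percent) by the number of the 6 other tissues with H3K27ac peaks in both libraries (x axis). Skeletal-muscle-only regions gather at 0 tissues, all-4 regions at 6 (70.4%), and heart-only regions are spread over the whole range.

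The same 3 classes were formed for heart and for skeletal muscle with each of the 6 other tissues, giving 13 pairs that share libraries and are set side by side without a test. Of regions in both heart libraries and neither library of the partner tissue, 9.99% (colon) to 20.2% (pancreas) were in no further tissue, a range that holds the 12% obtained against skeletal muscle. Of regions in both skeletal muscle libraries and neither partner library, 49.6% (colon) to 63.9% (liver) were in no further tissue, a range that holds the 57.2% obtained against heart. For each tissue, the regions in no further tissue are the same ones whichever partner is used, and only the class size changes. These ranges therefore give no comparison of muscle with non-muscle partners. Acetylation held by heart and skeletal muscle and by no other tissue was scarce. The 120 all-4 regions found in no other tissue compare with 7 to 22 regions when heart was paired with another tissue and with 17 to 246 when skeletal muscle was, the count of 246 being the pair of skeletal muscle and liver. The heart and skeletal muscle pair thus ranked 2 of 13 by this number, above every other pair that involves heart. Of the 120 regions, 45 (37.5%) met H3K4me3, against 90.8% of all all-4 regions and 35.0% of all union regions. Of the 20969 union regions found in no other tissue, 1385 met it, a smaller share. The median length of the 120 regions was 1272 bp.

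The largest heart-only clusters, ranked by the length that their regions cover in the heart libraries, held acetylation in other tissues too. The lengths given for all clusters cover the whole span, peaks outside the class regions included. On chromosome 3, 8 regions spread over chr3:15941466-15965066, with 6.77 and 8.53 kb of H3K27ac in heart replicates 1 and 2 and none in skeletal muscle. H3K4me3 covered 2.69 kb there in heart and 2.62 and 3.68 kb in skeletal muscle, and 8 of the 12 H3K27ac libraries of other tissues had a peak, up to 3.23 kb in liver. The promoter mark was thus present in both tissues while the acetylation was called in heart. On chromosome 5, the span chr5:58062222-58080115 with 9 regions held 7.11 and 6.62 kb in the heart libraries, and 5 of the 12 other libraries had a peak, up to 2.52 kb in kidney. The span chr10:39120792-39133353 with 4 regions held 5.45 and 4.46 kb in the heart libraries, all 12 other libraries had a peak, and pancreas reached 6.15 kb, more than either heart library. That cluster is acetylated in all 7 tissues other than skeletal muscle, and H3K4me3 covered 4.18 kb there in heart and 3.97 and 3.22 kb in skeletal muscle.

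The largest skeletal-muscle-only clusters covered more sequence. The span chr10:85648288-85669995 with 8 regions held 13.4 and 12.4 kb in skeletal muscle replicates 1 and 2 and none in heart, and no other tissue's library exceeded 0.949 kb. H3K4me3 covered 1.49 kb there in heart and 2.0 and 6.30 kb in skeletal muscle, so it was widest in skeletal muscle replicate 2. The span chr6:32214240-32234489 with 10 regions held 12.4 and 13.2 kb in the skeletal muscle libraries, H3K4me3 was called in skeletal muscle replicate 2 alone (2.22 kb), and none of the 12 H3K4me3 libraries of the other tissues had a peak. Low acetylation was found in 9 of 12 other libraries, up to 2.02 kb in spleen. The span chr11:65386234-65403064 with 6 regions held 12.9 and 11.9 kb in skeletal muscle, and spleen reached 5.66 kb. The 3 largest all-4 clusters, at chr16:50703357-50719767, chr11:16535403-16553938 and chr5:111910805-111943186, had peaks in all 12 libraries of the other tissues. Within each of these clusters both heart libraries (6.30 to 11.2 kb over the 3 clusters) covered less than both skeletal muscle libraries (10.3 to 14.2 kb).

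Single regions were named by breadth over the other tissues and by length without H3K4me3. The broadest ones named are examples, as 278 heart-only and 52 skeletal-muscle-only regions were found in both libraries of all 6 other tissues. The heart-only region at chr11:129693573-129696339 had H3K27ac in all 12 libraries of the other tissues, with 2340 and 2048 bp covered in the heart libraries. H3K4me3 was called there in heart replicate 2 (501 bp) and in skeletal muscle replicate 1 (598 bp) and not in skeletal muscle replicate 2. It is a region where skeletal muscle was the only tissue without a called acetylation peak. The longest heart-only region with no H3K4me3, chr7:78020609-78023633, held 2622 and 1126 bp in the heart libraries and had a peak in 3 of the 12 other libraries. The skeletal-muscle-only region at chr1:177230321-177232479 was acetylated in all 12 other libraries and lacked H3K4me3, with 1936 and 1665 bp in the skeletal muscle libraries, so heart was the only tissue without a peak there. The longest skeletal-muscle-only region with no H3K4me3, chr2:188619307-188626063, held 6316 and 6527 bp in the skeletal muscle libraries, more than any heart-only region without H3K4me3, and was found in 6 of the 12 other libraries.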

How the data were processed

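Per the labels' protocols, ChIP-seq libraries of both marks were made with Illumina's TruSeq DNA kit. Tools named by the submitters' processing notes, with no role given, are MACS2 2.1.1.20160309, bedtools 2.26, Bowtie 1.1.2 and SAMtools 1.3.1. The deposited files are 1 narrowPeak list per library, so the authors called peaks per sample, and peak names carry the build calJac3. The deposited −log10 p and −log10 q values were used only to rank or filter peaks within a list; the lowest −log10 p of the 7 lists was 5.64, and no peak was shorter than 300 bp. The 8 input samples are not analysed here, and the use the authors made of them was not given in the sources. Depth is unknown, and a deeper or more enriched library gives a longer list.

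Intervals were merged, overlapped (at least 1 bp) and measured with Python 3.11.15 and numpy 2.4.6, and figures were drawn with matplotlib 3.10.9. The code was tested on simulated intervals. Differences were tested with two-sided exact permutation tests over libraries (2 against 2) or exact sign-flip permutation tests (4 libraries). The sign-flip tests pool both tissues, and replicates of a tissue share its class regions, so their 4 values are not independent. Named were, by rule, the 3 clusters per class (regions joined within 12 kb) with most covered length, the single-tissue regions found in most other tissues and the longest without H3K4me3. The regions, classes and rules were chosen with earlier results of these data known. Gene lists prepared for an annotation of calJac3 were not used here, and no coordinate was converted between builds.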

Additional observations from a re-analysis of the deposited data

How the results depend on the processing

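Of 94 values recomputed under alternatives, 89 kept their size class, and their direction where they have one, 5 moved and 0 reversed. Region counts have no direction, so they could move but not reverse, and all 5 that moved were such counts. Requiring single-tissue regions to lie over 1 kb from the other tissue's peaks left the all-4 count at 11115 by construction. Skeletal-muscle-only regions numbered 5029 with lists of equal length. Leaving out 1 library gave 3636 to 9926 heart-only regions (7180 without heart replicate 1, 9926 without heart replicate 2) and 10267 to 19449 skeletal-muscle-only regions (17886 and 19449 without skeletal muscle replicates 1 and 2); a class then rests on 1 library of that tissue, so it grows by construction. All-4 regions ranged over 9696 to 12989. The differences of single-tissue minus all-4 peaks ranged from -62.8 to -51.4 percentage points for H3K4me3, which was -55.1 within strata of length. They ranged from -341.5 to -249 bp for length and from 20.3 (a cut at 50 kb) to 48.8 points for distance. For absence elsewhere they ranged from 25.7 to 42.1 points. The difference was 48.0 points where presence elsewhere was redefined as a peak in both libraries of at least 1 other tissue. Taking the replicate number as a block cannot change a difference of means in this balanced layout. Heart over skeletal muscle was thus again -0.49 for peak number and -0.60 for covered length (log2). The blocked exact permutation p was 0.5, the smallest possible. Both values are counted among the 89 that did not move, by construction.

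Depth is unknown, each tissue has 2 H3K27ac libraries, and heart has 1 H3K4me3 library. The smallest exact permutation p was 0.333 for 2 against 2 libraries and 0.13 for 4. Peak lists give presence, not the height of acetylation on a scale shared by the libraries.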
